A study of Mus musculus with 18 samples.

Results

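The genes described here are the immunoglobulin genes of the mouse liver, the constant and variable segments of the heavy, kappa and lambda chain loci, with Jchain, which encodes the chain that joins IgA and IgM units into polymers. They were selected from their names and from the measured levels: a row of the deposited table was taken when its symbol matched an immunoglobulin heavy, kappa or lambda segment or was Jchain, and when it reached 1 TPM (a length-corrected share of all transcripts in a library) in at least 3 of the 18 libraries. Of 58126 genes in the table, 393 carried such a name, 200 of these were above 0 in at least 1 library, and 82 passed. One of the 82, Ighmbp2, is named for binding DNA near the heavy chain mu locus; it encodes a helicase and matched by its letters only. Its level ranged from 0.070 to 1.65 TPM and it is left out from here on, so that 81 genes are described. They comprised Jchain, 6 heavy chain constant genes (Ighm, Igha, Ighg1, Ighg2b, Ighg2c and Ighg3), 21 heavy chain variable segments, Igkc, 48 kappa variable segments, 2 lambda constant genes and 2 lambda variable segments.

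RNA sequencing was done on bulk liver of C57BL/6 mice with a liver-specific deletion of Ftcd (LKO), which encodes a folate-dependent enzyme of histidine breakdown, and of wild-type (WT) littermates. The labels do not name the Cre driver, and they give no sex. Untreated WT (3 libraries) and untreated LKO (3 libraries) livers were taken at 12 months of age. The other mice received the liver carcinogen diethylnitrosamine (DEN), 20 mg/kg into the peritoneum on postnatal day 14, and were sampled 12 months later. These gave nontumour liver of DEN-treated WT mice (6 libraries), nontumour liver of DEN-treated LKO mice (3 libraries) and tumours of DEN-treated LKO mice (3 libraries). The labels do not say whether libraries come from separate animals, or whether tumours and nontumour pieces share animals, so the p-values measure the spread between these libraries, which may in part be technical. The study asked how loss of Ftcd in hepatocytes changes gene expression during liver tumour formation. The genes described here are made by B-lineage cells in the tissue and not by hepatocytes.

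Several libraries stood apart or went against their labels. Ftcd itself was at 61.2 to 106 TPM in 6 of the 9 libraries labelled WT and at 0.10 to 3.16 TPM in the 9 LKO libraries. The other 3 libraries labelled WT (untreated WT library 3 and DEN WT libraries 1 and 2) had 1.77, 2.36 and 2.50 TPM, within the LKO range, and are called by their labels with that doubt. Xist and Y-linked transcripts marked all 9 libraries labelled WT as XX and 7 of the 9 LKO libraries as XY, so sex and genotype can hardly be told apart. Mitochondrially encoded genes took 4.24% to 38.8% of TPM per library. Alb, Apoa1 and the 6 other hepatocyte genes checked summed to 17168.5 to 98828.8 TPM per library.

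An antibody is built from 2 kinds of chain, heavy and light. Each B cell joins 1 variable segment, through short joining segments, to a constant region, so a chain's mRNA carries the variable part towards its 5′ end and the constant part towards its 3′ end. The heavy chain constant gene sets the class: Ighm gives IgM, Igha gives IgA and the Ighg genes give IgG. Plasma cells, the secreting end stage of B cells, fill themselves with these mRNAs. In liver, IgA is carried into bile by the receptor encoded by Pigr. In bulk tissue, fewer cells of a type and less RNA per cell cannot be told apart.

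The variable segments within a family are close copies, and stretches of the most abundant ones are shown because they bear on how far the levels of neighbouring segments can be separated. The sequences are from GENCODE M21 transcripts on the GRCm38 (mm10) build. Igkv3-2 lies at chr6:70698449-70699067 on the plus strand, and bases 259 to 348 of its transcript are given with the aligned bases of 3 relatives, capitals marking each base that differs from Igkv3-2:
Igkv3-2: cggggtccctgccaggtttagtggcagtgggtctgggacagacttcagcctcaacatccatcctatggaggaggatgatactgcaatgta
Igkv3-7: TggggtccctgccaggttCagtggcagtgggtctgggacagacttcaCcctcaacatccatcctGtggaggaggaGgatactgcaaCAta
Igkv3-4: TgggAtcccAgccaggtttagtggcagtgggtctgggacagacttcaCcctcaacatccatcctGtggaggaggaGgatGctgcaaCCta
Igkv3-5: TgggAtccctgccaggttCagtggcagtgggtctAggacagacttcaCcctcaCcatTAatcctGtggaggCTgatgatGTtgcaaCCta
These differed from Igkv3-2 at 7, 9 and 15 of the 90 bases. Over the aligned transcripts the 5 other Igkv3 members were 87.7% to 91.4% identical to Igkv3-2.

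Among the abundant heavy chain segments, Ighv1-53 lies at chr12:115158403-115158835 on the minus strand, and bases 232 to 321 of its transcript are given with the same stretch of Ighv1-55 and Ighv1-82, capitals marking the differences from Ighv1-53:
Ighv1-53: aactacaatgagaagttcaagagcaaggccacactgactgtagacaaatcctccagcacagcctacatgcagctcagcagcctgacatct
Ighv1-55: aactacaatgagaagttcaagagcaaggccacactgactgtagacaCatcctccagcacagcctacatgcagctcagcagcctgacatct
Ighv1-82: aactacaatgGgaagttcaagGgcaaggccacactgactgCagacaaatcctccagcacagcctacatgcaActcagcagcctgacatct
Ighv1-55 differed at 1 base and Ighv1-82 at 4. Over the aligned transcripts Ighv1-55, Ighv1-64 and Ighv1-72, all among the 81 genes, were each 95.4% identical to Ighv1-53, and Ighv1-82 was 88.4% identical to it. The level of any single segment is therefore uncertain, since estimated counts can move between such copies. Sums over a locus are less exposed to this.

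Jchain (chr5:88519809-88527891, minus strand) is expressed in antibody-secreting cells. Its level was 5.12, 4.88 and 1.74 TPM in untreated WT libraries 1 to 3, and 0.77, 0.34 and 1.27 TPM in untreated LKO libraries 1 to 3. In DEN WT libraries 1 to 6 it was 1.81, 1.38, 9.58, 13.4, 80.9 and 4.07 TPM, in DEN LKO nontumour libraries 1 to 3 it was 0.64, 4.68 and 0.53 TPM, and in the tumours 0.26, 1.81 and 1.28 TPM. The 3 untreated WT libraries all lay above the 3 untreated LKO libraries, the lowest WT library being 1 of the low-Ftcd libraries. DEN WT library 5 stood above every other library. Group means were 18.5 ± 30.9 TPM (SD, n = 6) in DEN WT, 3.91 ± 1.89 (n = 3) in untreated WT, 1.95 ± 2.36 (n = 3) in DEN LKO nontumour liver, 1.12 ± 0.79 (n = 3) in tumours and 0.79 ± 0.47 (n = 3) in untreated LKO, and each group overlapped with the next in this order.

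Igkc (chr6:70726435-70726966, plus strand), the constant region of kappa light chains, was the most abundant of the 81 genes in 17 of the 18 libraries. It was at 104, 295 and 202 TPM in untreated WT and at 62.0, 25.7 and 58.8 TPM in untreated LKO, with no overlap. In DEN WT libraries 1 to 6 it was at 468, 54.4, 206, 578, 1028 and 48.8 TPM, a range that took in all 3 untreated WT libraries. DEN LKO nontumour liver had 93.2, 582 and 199 TPM and the tumours had 43.5, 105 and 78.2 TPM. Library 2 of the DEN LKO nontumour group was thus as high as DEN WT library 4, and DEN WT libraries 2 and 6 were as low as untreated LKO.

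Ighm (chr12:113418558-113422730, minus strand) encodes the IgM heavy chain, the first class a B cell makes. It was at 62.8, 56.2 and 25.4 TPM in untreated WT, and at 9.26, 4.61 and 76.0 TPM in untreated LKO. Untreated LKO library 3 lay above all 3 untreated WT libraries and the other 2 LKO libraries below them, so the groups overlapped. In DEN WT libraries 1 to 6 Ighm was at 33.4, 18.9, 68.7, 90.6, 914 and 32.95 TPM. DEN LKO nontumour liver had 31.5, 99.6 and 24.2 TPM, within the range of the DEN WT group, and the tumours had 15.7, 9.35 and 32.0 TPM. The DEN WT mean of 193 ± 354 TPM (SD, n = 6) rested on library 5.

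Igha (chr12:113254830-113260236, minus strand) encodes the IgA heavy chain, the class of the gut mucosa and bile. It was at 9.04, 13.4 and 6.88 TPM in untreated WT and at 5.14, 1.54 and 2.51 TPM in untreated LKO, with no overlap. In DEN WT libraries 1 to 6 it was at 88.9, 7.68, 28.8, 82.7, 63.2 and 9.52 TPM. DEN LKO nontumour liver had 5.46, 27.5 and 6.64 TPM, each above the 3 untreated LKO libraries, and the tumours had 3.73, 11.3 and 16.6 TPM. Igha was 1 of 3 genes, with Ighg1 and Iglc1, whose highest value was in DEN WT library 1 rather than library 5. DEN WT library 1 is a low-Ftcd library and had the largest mitochondrial share of the series, 38.8% of TPM.

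**Figure D1:**
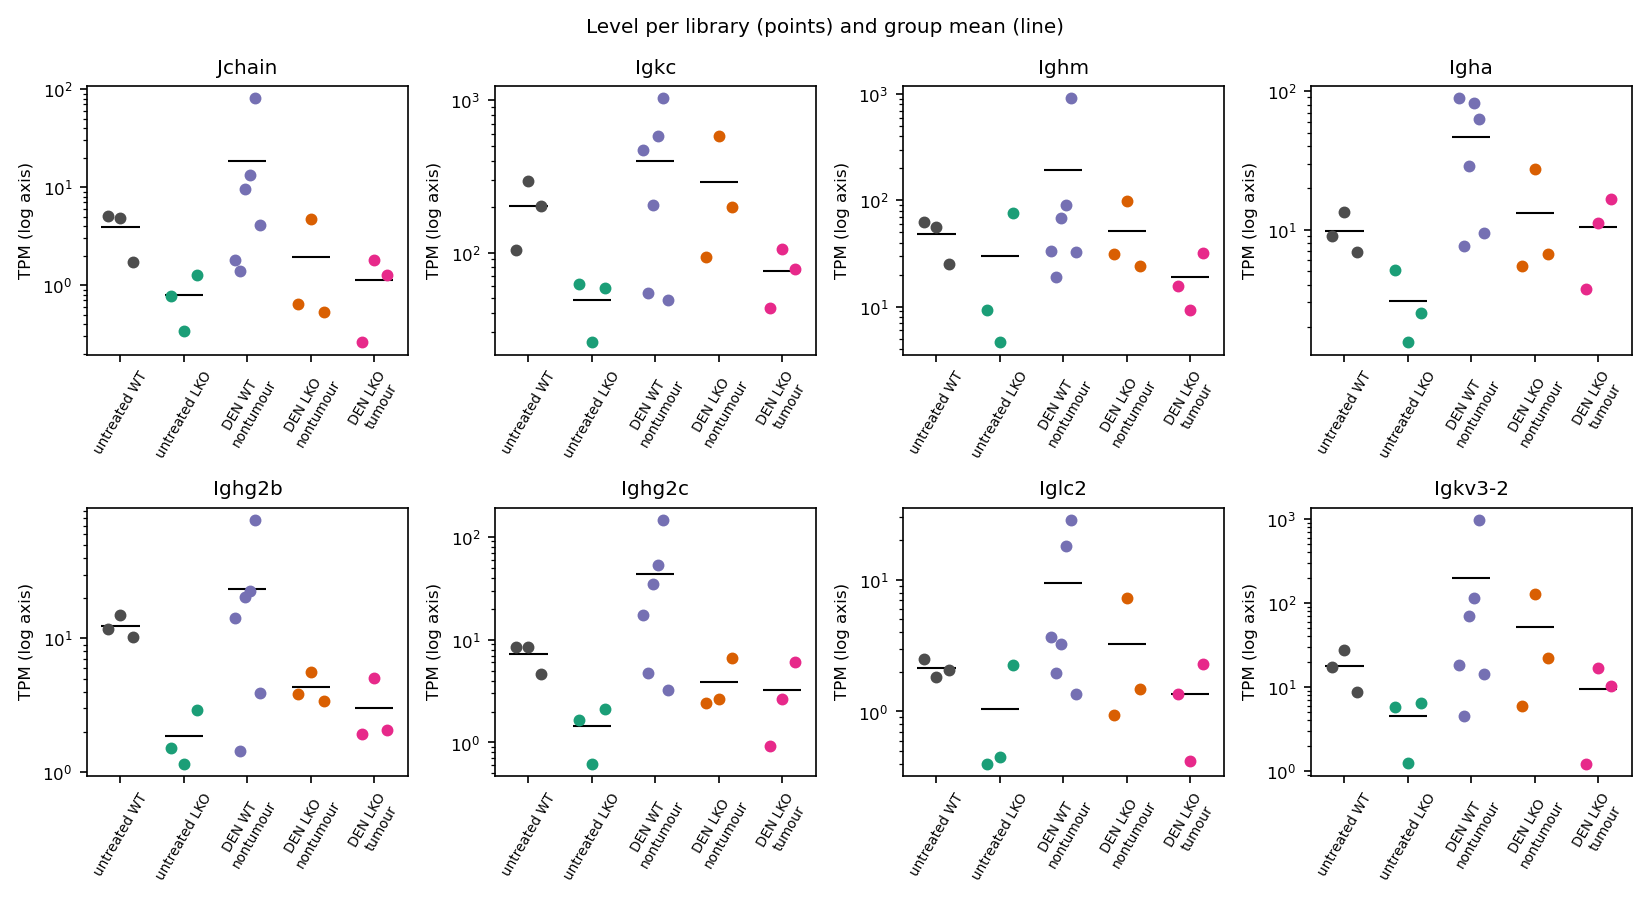
Level of Jchain, 4 heavy chain constant genes, Igkc, Iglc2 and Igkv3-2 in each of the 18 libraries, by group; points are libraries, horizontal lines are group means, and the vertical axis is TPM on a log scale. DEN WT library 5 is the highest point for 7 of the 8 genes, and Igha is the exception.

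Ighg2c, an IgG2 gene of C57BL/6 mice, was at 8.53, 8.55 and 4.64 TPM in untreated WT and at 1.64, 0.62 and 2.10 TPM in untreated LKO. It was at 17.3, 4.74, 34.6, 53.0, 146 and 3.25 TPM in DEN WT libraries 1 to 6, at 2.40, 2.65 and 6.57 TPM in DEN LKO nontumour liver and at 0.92, 2.66 and 6.03 TPM in tumours. The untreated groups did not overlap, whereas DEN LKO nontumour library 3 lay within the DEN WT range and libraries 1 and 2 just below it.

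Ighg2b, its neighbour in the locus, was at 11.8, 14.9 and 10.3 TPM in untreated WT and at 1.51, 1.15 and 2.90 TPM in untreated LKO, again with no overlap. The DEN WT libraries had 14.3, 1.43, 20.5, 22.8, 77.4 and 3.92 TPM, the DEN LKO nontumour libraries 3.83, 5.63 and 3.41 TPM and the tumours 1.91, 5.04 and 2.06 TPM. Ighg2b was thus higher in every DEN LKO nontumour library than in any untreated LKO library.

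Ighg3 encodes an IgG class made largely without T cell help. It was at 0.90, 3.78 and 0.98 TPM in untreated WT, at 0.33, 0.18 and 0.26 TPM in untreated LKO, at 5.47, 0.30, 23.0, 3.16, 87.4 and 2.40 TPM in DEN WT, at 0.21, 0.44 and 0.44 TPM in DEN LKO nontumour liver and at 0.20, 0.10 and 0.050 TPM in tumours. It passed the level rule through WT libraries only. Ighg1, the IgG class most tied to T cell help, was at 0.41, 0.61 and 6.23 TPM in untreated WT, at 1.17, 0.39 and 0.80 TPM in untreated LKO, at 19.3, 1.33, 7.50, 2.75, 18.6 and 0.87 TPM in DEN WT, at 1.75, 1.85 and 2.08 TPM in DEN LKO nontumour liver and at 1.00, 1.09 and 0.62 TPM in tumours. Both IgG genes were lower in every tumour than in any DEN LKO nontumour library.

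The remaining heavy chain constant genes did not pass the level rule. Ighd, which encodes the IgD heavy chain of naive B cells, reached 12.9 TPM in DEN WT library 5 and 2.67 TPM in DEN LKO nontumour library 2, and was under 1 TPM in the other 16 libraries. Ighe, the IgE heavy chain gene, was at most 0.16 TPM.

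As a share of all heavy chain constant TPM, Ighm ranged from 18.6% in DEN WT library 1 to 89.4% in untreated LKO library 3. Igha took 49.4% in DEN WT library 1, 37.8% in tumour library 2 and 2.95% in untreated LKO library 3. In DEN WT library 5, where absolute levels were highest, Ighm held 69.2% and Igha 4.79%. The 4 Ighg genes together took between 7.13% (untreated LKO library 3) and 46.6% (DEN WT library 3). The share of Ighm varied widely within groups, and its ranges overlapped. That of Igha was 9.62% to 13.7% in untreated WT and 15.5% to 37.8% in tumours, with no overlap. The shares of Ighd and Ighg3 did not overlap between these 2 groups either. For Ighd this was not particular to tumours. Its share was 0.33% to 0.44% in untreated WT, 0.51% to 3.63% in untreated LKO and 0.93% to 1.90% in DEN LKO nontumour liver. Untreated WT and tumours differ in genotype label, DEN treatment and tissue. They were not 1 of the 5 comparisons and were not tested against each other. How often shares failed to overlap in other pairs of groups was not counted, so nothing is read from these.

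**Figure D2:**
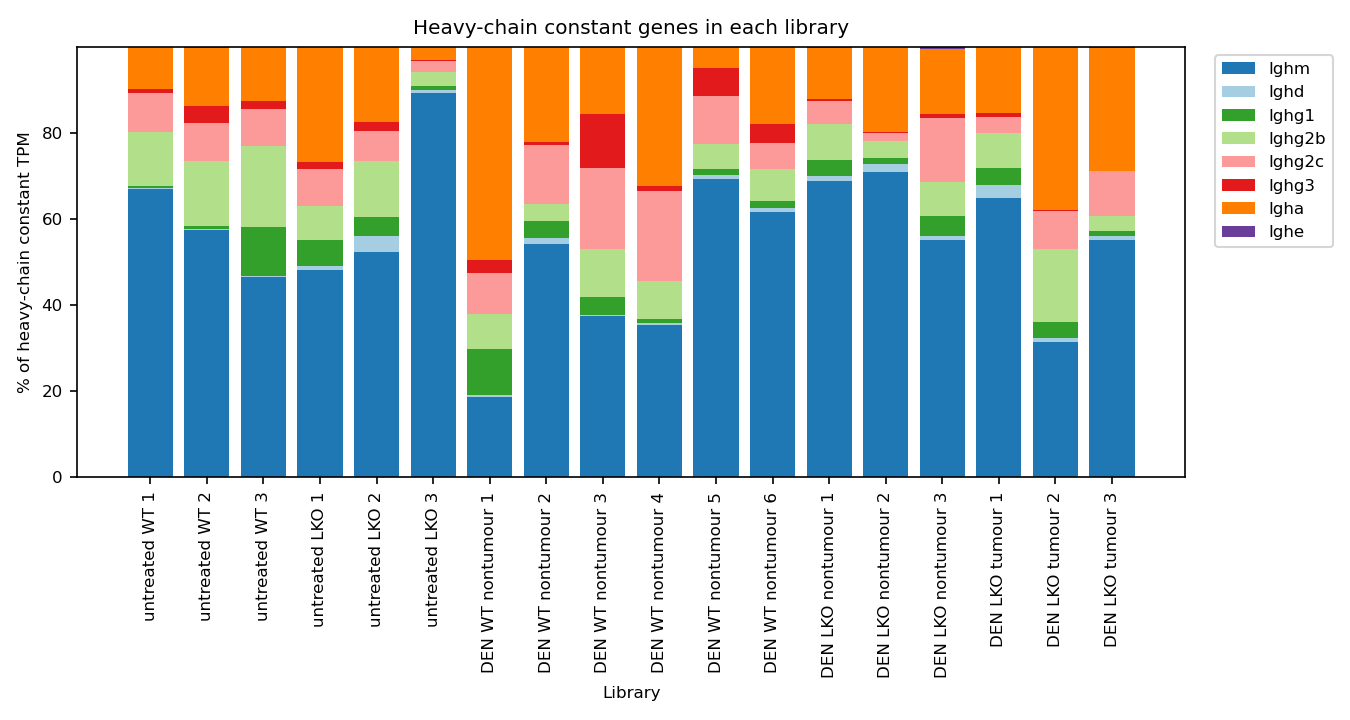
Share of each heavy chain constant gene in the summed TPM of the heavy chain constant genes (vertical axis, %), 1 stacked bar per library. Ighm is the largest part in most libraries; Igha reaches 49.4% in DEN WT library 1, and Ighm 89.4% in untreated LKO library 3.

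Kappa chains prevailed over lambda, as is usual in mice. Igkc made up 91.8% to 99.5% of the light chain constant TPM. Iglc2 (chr16:19198396-19200351, minus strand) was at 2.51, 1.83 and 2.05 TPM in untreated WT, at 0.40, 0.45 and 2.27 TPM in untreated LKO, at 3.70, 1.95, 3.24, 18.1, 28.6 and 1.36 TPM in DEN WT, at 0.94, 7.29 and 1.48 TPM in DEN LKO nontumour liver and at 1.35, 0.42 and 2.31 TPM in tumours. It followed Igkc in peaking in DEN WT library 5.

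Iglc1 (chr16:19061618-19062071, minus strand) did not. It was at 0.68, 8.21 and 0.94 TPM in untreated WT, at 0.89, 0.47 and 0 TPM in untreated LKO, at 13.6, 0.95, 0.75, 1.68, 0 and 2.19 TPM in DEN WT, at 1.83, 2.66 and 1.36 TPM in DEN LKO nontumour liver and at 0.78, 0.090 and 0 TPM in tumours. DEN WT library 5, the highest library for 69 of the 81 genes, is thus listed at 0 for Iglc1. Lambda constant genes have near copies elsewhere in the locus, so the level of each is uncertain.

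The lambda variable segment Iglv1 was at 11.7, 2.75 and 0.94 TPM in untreated WT, at 0.88, 0 and 1.35 TPM in untreated LKO, at 1.93, 1.25, 9.57, 17.6, 69.2 and 4.60 TPM in DEN WT, at 0.10, 6.87 and 1.36 TPM in DEN LKO nontumour liver and at 0.18, 0.54 and 5.98 TPM in tumours. Iglv3 was above 0 in untreated WT library 1 (0.52 TPM) and in all 6 DEN WT libraries (0.23, 0.64, 0.18, 5.84, 3.17 and 1.38 TPM), and was listed at 0 in the 11 others.

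Igkv3-2 was the leading variable segment of the series, with a mean of 80.8 TPM and a median of 15.4 TPM over the 18 libraries. It was at 17.4, 27.2 and 8.61 TPM in untreated WT and at 5.79, 1.24 and 6.35 TPM in untreated LKO, with no overlap. It was at 18.3, 4.55, 69.6, 115, 983 and 14.3 TPM in DEN WT, at 5.89, 127 and 22.1 TPM in DEN LKO nontumour liver and at 1.21, 16.6 and 10.4 TPM in tumours. In 13 libraries it was the highest kappa segment, and in DEN LKO nontumour library 2 it held 65.0% of all kappa variable TPM.

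Igkv3-5 and Igkv6-17 came next, with means over all libraries of 18.7 and 18.6 TPM. Igkv3-5 was at 13.1, 10.4 and 1.21 TPM in untreated WT, at 0.76, 0 and 1.60 TPM in untreated LKO, at 2.17, 18.5, 7.13, 12.9, 234 and 3.08 TPM in DEN WT, at 0.55, 17.9 and 3.16 TPM in DEN LKO nontumour liver and at 0, 3.66 and 6.11 TPM in tumours. It was the leading kappa segment of DEN WT library 2. Igkv6-17 was at 7.46, 10.4 and 12.3 TPM in untreated WT, at 2.63, 0 and 3.55 TPM in untreated LKO, at 10.2, 1.96, 21.8, 45.0, 188 and 2.66 TPM in DEN WT, at 1.16, 11.8 and 6.38 TPM in DEN LKO nontumour liver and at 1.93, 5.50 and 2.16 TPM in tumours. Among these 3 kappa segments, Igkv6-17 and Igkv3-2 separated the untreated groups without overlap and Igkv3-5 did not.

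The other kappa members had means over the 18 libraries from 0.32 TPM upwards, and the median of the 48 means was 1.78 TPM. By family, 13 were Igkv4, 8 Igkv6 and 6 Igkv3 segments. The Igkv3 family held 24.8% to 39.1% of kappa variable TPM in untreated WT library 1 and DEN WT libraries 3 to 6, and 43.2% to 81.5% in the other 13 libraries. The number of equally used kappa segments that would give the same spread (the exponential of the Shannon entropy of the shares) was 37.1 in untreated WT library 1. It was 20.0 to 34.9 in DEN WT libraries 3 to 6. Elsewhere it was 3.54 to 14.8, except in tumour library 3, where it was 20.8.

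Heavy chain variable segments reached 1 TPM in few libraries. Ighv1-53 was at 4.63 TPM in untreated WT library 1, and at 4.62, 0.97, 221 and 5.97 TPM in DEN WT libraries 3 to 6. It was at 0.59 and 0.26 TPM in DEN LKO nontumour libraries 2 and 3, and listed at 0 in the other 11 libraries. Its close copy Ighv1-55 was at 6.24 TPM in untreated WT library 1, at 9.97, 0, 205 and 4.62 TPM in DEN WT libraries 3 to 6, at 1.00 TPM in DEN LKO nontumour library 2, and at 0.45 and 0.29 TPM in tumour libraries 2 and 3. Both followed the same few libraries.

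Ighv1-82 was at 3.30 TPM in untreated WT library 1, at 0.42, 2.29, 0.26, 75.3 and 0.29 TPM in DEN WT libraries 2 to 6, and listed at 0 in the 12 others. Over the 21 heavy chain variable members, 1.30 TPM was the highest value in the 13 libraries other than untreated WT library 1 and DEN WT libraries 3 to 6. Only 2 of the 21 reached 1 TPM in any of those 13.

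**Figure D3:**
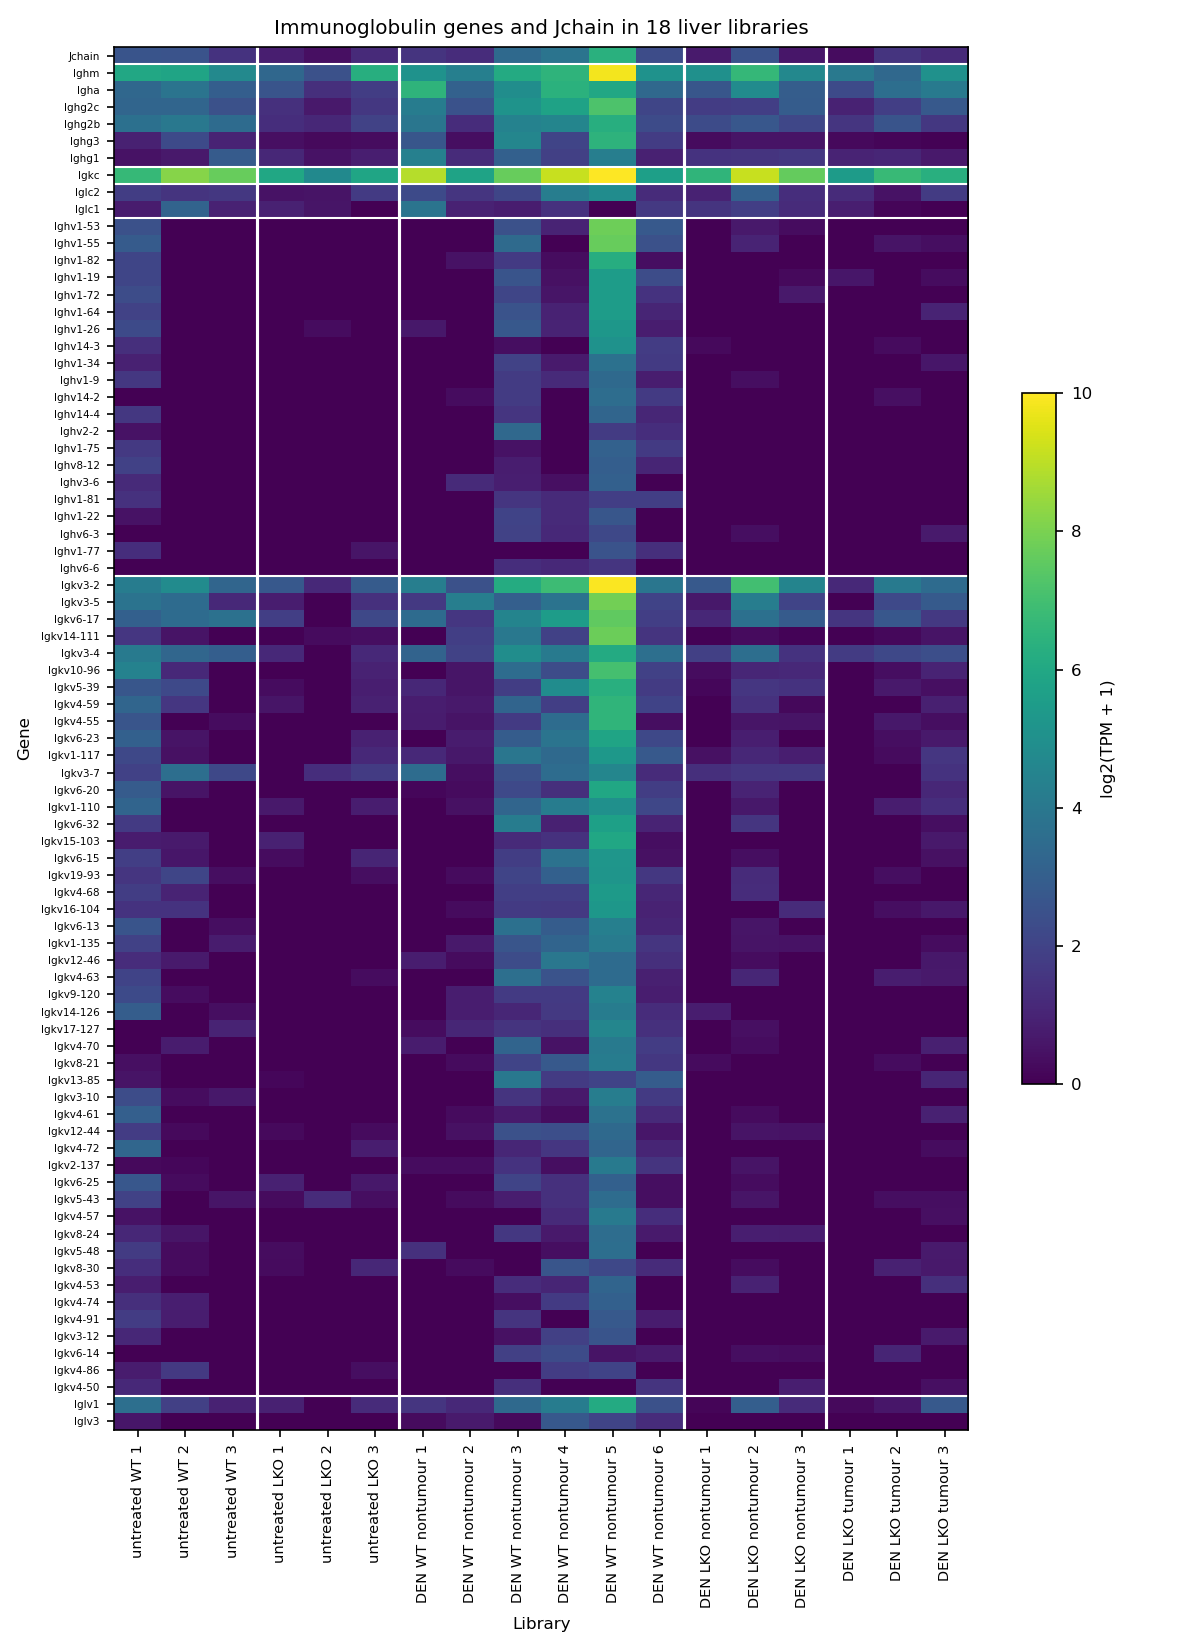
Level of the 81 genes (rows, grouped as Jchain, heavy constant, kappa constant, lambda constant, heavy variable, kappa variable and lambda variable) in the 18 libraries (columns, grouped by study group), as log2(TPM + 1) on the colour scale. Constant genes other than Iglc1 are above 0 in every library, whereas heavy chain variable segments are seen mainly in untreated WT library 1 and DEN WT libraries 3 to 6.

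DEN WT library 5 contributed to most of the set. It held the highest value of 69 of the 81 genes, by a median factor of 4.18 over the next library for those 69. The level rule bears on this count, since 25 of the 81 passed only with this library, Ighv1-82 and Igkv15-103 among them. How many of all genes tested were highest in it was not counted, so nothing is read from the 69. The widest gaps among variable segments were those of Igkv15-103 (62.1 against 1.66 TPM, a factor of 37.4), Ighv1-53 (37.0), Ighv1-82 (22.8), Ighv1-55 (20.6) and Igkv16-104 (16.9). The summed TPM of the 81 genes was 6180 in this library and 137 to 1297 in the other 5 DEN WT libraries. It was 299 to 501 in untreated WT, 40.1 to 174 in untreated LKO, 156 to 934 in DEN LKO nontumour liver and 75.5 to 192 in tumours.

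The level rule itself leaned on the DEN WT group. Without DEN WT library 5, 56 of the 81 genes still reached 1 TPM in 3 libraries and 25 did not. In the 12 libraries outside the DEN WT group, 22 passed, and 13 genes reached 1 TPM in DEN WT libraries only. At the edge of the rule, 27 of the 81 reached 1 TPM in exactly 3 libraries, among them Ighv1-82 and Iglv3, and 38 further immunoglobulin rows reached it in 2 and were not taken. The highest values among those 38 were 94.7 TPM for Igkv17-121 and 36.4 TPM for Igkv5-45. The rest of the 393 names were 193 rows at 0 in every library, which included all 20 heavy diversity and all 10 light joining segments, and the remaining rows above 0, of which 39 reached 1 TPM in 1 library and 41 in none. For 35 of the 39 that library was DEN WT library 5. None of the 130 variable segment pseudogenes among the names passed, against 71 of 216 variable genes annotated as functional.

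The variable segments were read at very different rates relative to the constant genes. The summed kappa variable TPM divided by that of Igkc was 2.13, 0.32 and 0.18 in untreated WT libraries 1 to 3 and 0.24, 0.20 and 0.45 in untreated LKO. In DEN WT libraries 1 to 6 it was 0.12, 0.75, 1.70, 0.70, 3.31 and 2.21. It was 0.15, 0.34 and 0.23 in DEN LKO nontumour liver and 0.14, 0.35 and 0.60 in tumours. The ratio thus exceeded 1 in 4 libraries, all labelled WT.

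This ratio moved with the mitochondrial share of the library. The 6 libraries with a mitochondrial share under 10% of TPM had ratios of 0.70 to 3.31, and the 12 libraries above 10% had 0.12 to 0.60, without overlap. The cut of 10% falls between 2 libraries with nearly the same share: DEN WT library 4 (9.82%, ratio 0.70) and untreated WT library 2 (10.01%, ratio 0.32). The separation depends on where the cut is placed. Spearman's rho between the ratio and the mitochondrial share was -0.93 over the 18 libraries, given as a description. For the heavy chain the ratio of variable to constant TPM was 0.088 to 0.99 in the 6 libraries under 10% and 0 to 0.088 in the other 12, with a rho of -0.73. The number of heavy chain variable segments above 0 went the same way (rho -0.79): it was 38 to 82 in untreated WT library 1 and DEN WT libraries 3 to 6, and 0 to 9 in the 13 others. DEN WT library 2, with a mitochondrial share of 6.47%, was the exception among the 6 libraries under 10%, with 7 such segments. The summed level of the 81 genes followed the mitochondrial share less closely (rho -0.44). All 9 LKO libraries had mitochondrial shares above 10%, so a difference between genotype labels in variable segments cannot be told apart from this difference between libraries, and the part of RNA quality in either was not tested.

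**Figure D4:**
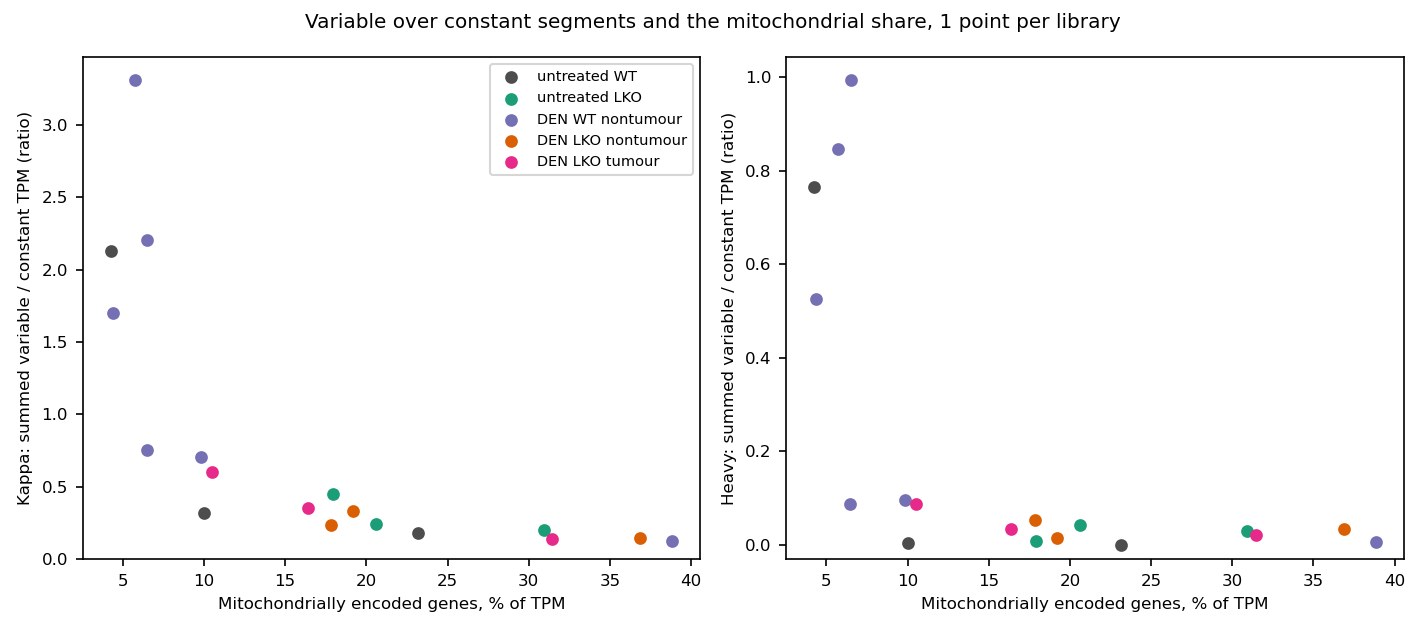
Ratio of summed variable to summed constant TPM for kappa (left) and heavy chain (right) genes against the mitochondrial share (horizontal axis, % of TPM), 1 point per library, coloured by group. Ratios above 0.70 for kappa occur only at mitochondrial shares under 10%.

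Mzb1 and Cd79a, the 2 genes outside the immunoglobulin loci tested for this, followed Jchain across the libraries. Mzb1, a chaperone of antibody-secreting B cells, correlated with Jchain at Pearson r = 0.91 (adjusted permutation p = 8.33e-05) and Spearman rho = 0.79 (adjusted permutation p = 0.000267) over 18 libraries on log2(TPM + 1). Cd79a, part of the B cell receptor, gave r = 0.90 (adjusted permutation p = 8.33e-05) and rho = 0.80 (adjusted permutation p = 0.000267). These permutations, and those for the immunoglobulin genes below, shuffled the 18 libraries freely across the 5 groups. They treat the libraries as exchangeable, which the groups and possibly shared animals may break, so the p-values may be too small. Without DEN WT libraries 4 and 5, which lay farthest from the median of Jchain, r was 0.79 for Mzb1 and 0.74 for Cd79a. On deviations from the group means r was 0.90 and 0.92, and within the 6 DEN WT libraries it was 0.93 and 0.95. The relation was thus also seen within groups with DEN WT library 5 included, and across groups without the 2 libraries highest in Jchain. Within groups without DEN WT library 5 it was not checked. Some other genes of the B cell and plasma cell lists did not peak in DEN WT library 5: Fkbp11, which acts in protein folding in the endoplasmic reticulum, was at 10.8 TPM there and at 147 and 149 TPM in tumour libraries 2 and 3, and Ebf1, a B cell transcription factor, was at 0.36 TPM there and at 4.23 TPM in DEN LKO nontumour library 3.

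Among the immunoglobulin genes tested in the same family of 5 relations, Ighm gave r = 0.87 (adjusted permutation p = 8.33e-05) and rho = 0.76 (0.00055), Igkc r = 0.72 (0.000575) and rho = 0.72 (0.00103), and Igha r = 0.72 (0.00069) and rho = 0.82 (0.000267). Without the 2 farthest libraries r was 0.69, 0.51 and 0.58. Within the 6 DEN WT libraries r was 0.98 for Ighm, 0.69 for Igkc and 0.46 for Igha. Whether these differ from each other was not tested. By rank the order was another: without the 2 farthest libraries rho was 0.67 for Ighm, 0.61 for Igkc and 0.78 for Igha.

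**Figure D5:**
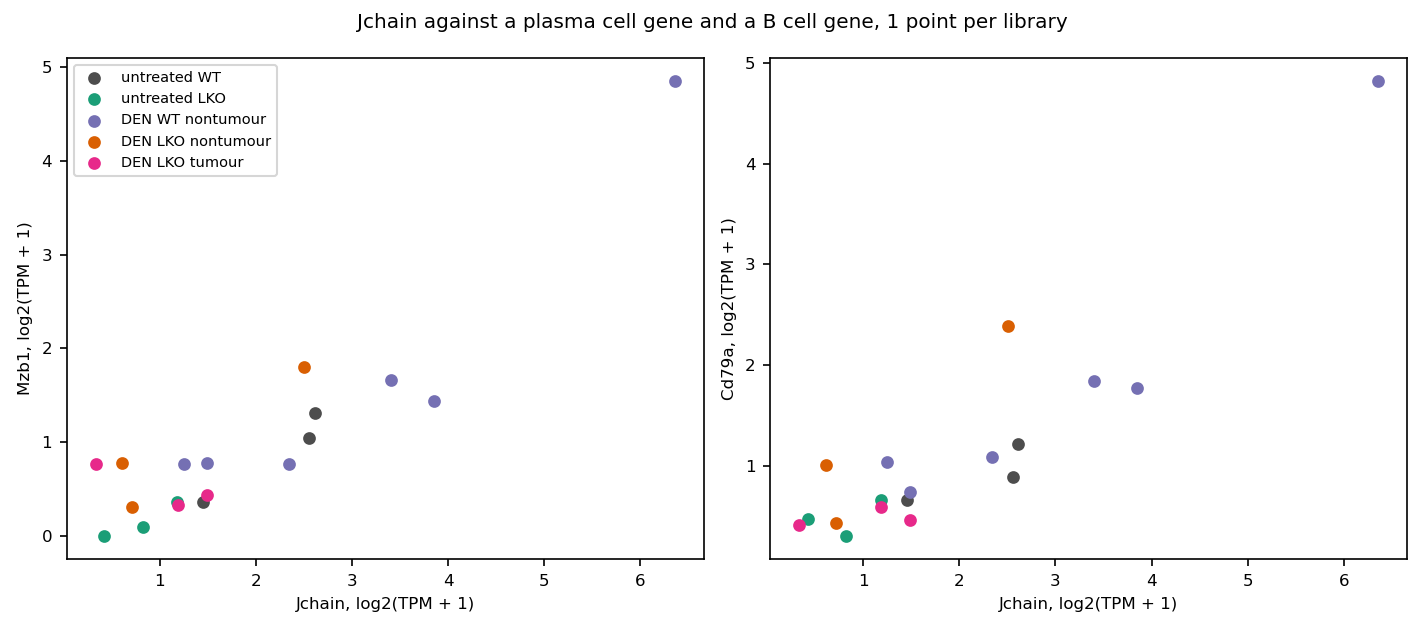
Level of Mzb1 (left) and Cd79a (right) against Jchain, both axes as log2(TPM + 1), 1 point per library, coloured by group. Both rise with Jchain (r = 0.91 and 0.90 over 18 libraries), and DEN WT library 5 is the isolated point at the upper right.

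B cell genes were low in most libraries. The summed TPM of 15 B cell genes was 7.26 to 12.1 in untreated WT, 6.10 to 6.70 in untreated LKO, 10.9 to 104 in DEN WT, 11.5 to 34.2 in DEN LKO nontumour liver and 14.2 to 38.5 in tumours. Ms4a1, which encodes CD20, was at 3.22 TPM in DEN WT library 5 and at 0.010 to 0.81 TPM elsewhere. DEN LKO nontumour library 2 was the next highest for Ms4a1, and was also the highest of its group for Jchain, Igkc, Ighm and Igha.

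Of 14 plasma cell genes, Mzb1 was at 27.9 TPM in DEN WT library 5 and at 0 to 2.48 TPM in the other 17, and Tnfrsf17, the plasma cell survival receptor BCMA, was at most 0.50 TPM. The summed level of this list ranged from 59.97 to 408 TPM and overlapped between the groups; it includes Xbp1, Sdc1, Txndc5, Creld2 and Fkbp11, which hepatocytes also express. The genes of V(D)J joining Rag1 and Rag2 were listed at 0 in all 18 libraries.

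T and NK cell genes were also high in DEN WT library 5. Their summed TPM was 83.4 there, the highest of the DEN WT range that began at 12.6. It was 6.61 to 15.8 in untreated WT, 5.46 to 11.03 in untreated LKO, 10.6 to 40.4 in DEN LKO nontumour liver and 12.97 to 74.7 in tumours. Cxcl13, the chemokine that draws B cells into follicles, was at 7.65 TPM in DEN WT library 5 and at most 2.43 TPM elsewhere. The part of lymphocyte content in the immunoglobulin levels of this library was not tested.

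Differences between groups were tested with limma on log2(TPM + 1) over all 13872 genes that reached 1 TPM in 3 libraries, with Benjamini-Hochberg adjustment over all of them and a threshold of 0.05. In each of the 5 comparisons between groups, and in the test of whether the DEN effect differed between genotype labels, 0 of the 81 genes passed. The 5 comparisons share groups with each other and are not independent. Because the genes had to reach 1 TPM in some libraries to be taken, and most did so through DEN WT libraries, the signs, medians and counts of genes past a threshold for the comparisons with that group follow in part from the selection. They are descriptions, and nothing is read from their excess over the shares of all genes.

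Between untreated LKO and untreated WT, the share of all genes called was 0.433% (60 genes), and 0 of the 81 were called. At an unadjusted p under 0.05, 2 of the 81 were lower in LKO (Ighg2b and Igkv3-4) and 0 higher, against 4.15% of all genes in either direction. The fitted log2 difference, LKO minus WT, was -1.99 ± 0.98 (SE) for Igkc, -1.48 ± 1.13 for Ighm, -1.46 ± 0.85 for Igha and -1.40 ± 0.94 for Jchain, each with an adjusted p of 0.831 in limma. It was below 0 for 77 of the 81 genes, with a median of -0.66 against -0.33 over all genes tested. When a term for the mitochondrial share was fitted, the median of the 81 was 0.013 and of all genes 0.030, and without untreated WT library 1 it was 0 and -0.16.

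All 3 untreated LKO libraries lay below all 3 untreated WT libraries for 11 of the 81 genes (13.6%), against 8.97% of all genes tested. The 11 were Jchain, Igkc, Igha, Ighg2b, Ighg2c, Ighg3, Igkv3-2, Igkv3-4, Igkv3-7, Igkv3-10 and Igkv6-17. Of these, 6 are Jchain or constant genes, and 4 are Igkv3 segments, which share sequence and so are not separate observations.

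After DEN, nontumour liver of LKO was set against nontumour liver of WT mice. Of all genes, 0.0577% (8 genes) were called, and 0 of the 81. At an unadjusted p under 0.05, 22 of the 81 (27.2%) were lower in LKO and 0 higher, against 13.1% of all genes (1811) in either direction, a comparison that the selection bears on. The log2 difference, LKO minus WT, was -1.84 ± 0.82 (SE; adjusted p = 0.365 in limma) for Jchain, -1.56 ± 0.74 (adjusted p = 0.380) for Igha, -0.72 ± 0.98 (adjusted p = 0.711) for Ighm and -0.07 ± 0.85 (adjusted p = 0.971) for Igkc. Igkc therefore showed the least difference of the 4, with 582 TPM in 1 LKO library and under 55 TPM in 2 WT libraries. The difference was below 0 for 80 of the 81 genes, with a median of -1.29 against -0.19 over all genes. The median of the 81 was -0.75 without DEN WT library 5, and -0.52 in a fit that took the mitochondrial share into account. Iglv3 was the 1 gene for which every DEN LKO nontumour library lay below every DEN WT library, against 1.73% of all genes. It was listed at 0 in the DEN LKO nontumour libraries and at 0.18 to 5.84 TPM in DEN WT. Since Iglv3 passed the level rule through DEN WT libraries only, nothing is read from its separation.

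This comparison depended on the 3 low-Ftcd libraries labelled WT. Without them, the DEN WT group held libraries 3 to 6, and limma called 23 of the 81 genes (28.4%) lower in LKO and 0 higher, against 5.65% of all genes called lower. Since 13 of the 81 reached 1 TPM in DEN WT libraries only, the selection bears on this count, and its excess over all genes is not read as a result. Jchain had a log2 difference of -2.71 ± 0.72 (SE; adjusted p = 0.0388 in limma), Ighg3 of -3.28 ± 0.81 (0.0331) and Ighg2c of -2.86 ± 0.85 (0.0497). The largest was -3.64 ± 1.01 for Igkv14-111 (0.0426), and the set held 16 further kappa segments, 2 heavy chain segments (Ighv1-34 and Ighv1-81) and Iglv3. Ighg3, Igkv14-111, Ighv1-34, Ighv1-81 and Iglv3 passed the level rule through WT libraries only, as did some of the other kappa segments. Nothing is read from the tests of such genes. Igkc, Ighm and Igha were not among the 23. The libraries so removed include the one with the largest mitochondrial share, and the 4 retained all have shares under 10% against 17.8% to 36.9% in the DEN LKO nontumour libraries, so genotype label, sex and mitochondrial share cannot be told apart here.

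In WT liver, DEN-treated libraries were compared with untreated ones. With 0% of all genes called and 0 of the 81, 10 of the 81 (12.3%) were higher at an unadjusted p under 0.05 and 0 lower, against 0.685% of all genes (95) in either direction. The selection bears on this count too. The log2 difference, DEN minus untreated, was 1.66 ± 0.74 (SE; adjusted p = 1.00 in limma) for Igha, 0.91 ± 0.82 for Jchain, 0.65 ± 0.98 for Ighm and 0.33 ± 0.85 for Igkc. It was above 0 for 78 of the 81 genes with a median of 0.89, against 0.015 over all genes. Without DEN WT library 5 it was above 0 for 58, with a median of 0.25. Igkv2-137 was the 1 gene for which all 6 DEN libraries lay above all 3 untreated ones, against 0.49% of all genes. It was at 0.19, 0.12 and 0 TPM in untreated WT. In DEN WT libraries 1 to 6 it was at 0.27, 0.25, 1.78, 0.31, 16.4 and 1.82 TPM. This gene passed the level rule through DEN WT libraries only, so nothing is read from its separation.

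In LKO liver, nontumour tissue after DEN was compared with untreated liver. Of all genes, 0.0649% (9 genes) were called, and 0 of the 81. Igkc, with a log2 difference of 2.25 ± 0.98 (SE; adjusted p = 0.755 in limma), was the 1 gene of the 81 with an unadjusted p under 0.05, against 5.96% of all genes. The difference was 1.56 ± 0.85 for Igha, 1.40 ± 1.13 for Ighm and 0.47 ± 0.94 for Jchain. Every DEN library lay above every untreated library for 7 of the 81 genes (Igkc, Igha, Ighg1, Ighg2b, Ighg2c, Iglc1 and Igkv3-4), which is 8.64% of them against 9.86% of all genes. The median difference of the 81, 0.11, was close to the 0.12 of all genes. Whether the DEN effect differed between the genotype labels was tested as an interaction, in which 0% of all genes and 0 of the 81 were called, 0 of the 81 also at an unadjusted p under 0.05.

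Tumours were compared with nontumour liver of DEN-treated LKO mice. With 0% of all genes called, 0 of the 81 were called, and 0 of the 81 had an unadjusted p under 0.05, against 2.74% of all genes. The log2 difference, tumour minus nontumour, was -1.62 ± 0.98 (SE) for Igkc, -1.28 ± 1.13 for Ighm, -0.27 ± 0.94 for Jchain and -0.15 ± 0.85 for Igha (adjusted p of 0.943 to 0.979 in limma). All 3 tumours lay below all 3 nontumour libraries for 3 of the 81 genes, Ighg1, Ighg3 and Iglc1, against 2.02% of all genes. The signs were mixed, 26 above 0 and 38 below.

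Genes that handle antibodies or their cells did not pass either. In all 6 tests limma called 0 of 9 tested B cell genes, 0 of 8 plasma cell genes, 0 of 2 genes of early B cells, 0 of 6 of class switching, 0 of 9 of antibody transport and Fc receptors, 0 of 8 of recruitment and survival signals, 0 of 12 of T and NK cells, 0 of 8 of macrophages, 0 of 8 of hepatocytes and 0 of 11 of endothelial, stellate and bile duct cells. At an unadjusted p under 0.05, the B cell list had 1 gene in each of 2 tests and the plasma cell list 2 genes at most. In nontumour LKO liver after DEN against untreated LKO, where Igkc had its difference of 2.25, 7 of 8 macrophage genes had an unadjusted p under 0.05 (median log2 difference 1.58). So had 5 of 9 genes of antibody transport and Fc receptors (1.48) and 3 of 12 of T and NK cells (0.87). Over all genes the share at that p was 5.96% and the median 0.12. The part of these lists in the Igkc value was not tested. Of 5 red cell genes 1 was called, Alas2, an enzyme of haem synthesis, which was higher in untreated LKO (log2 difference 3.25 ± 0.59, adjusted p = 0.0137 in limma).

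Pigr, the carrier of polymeric IgA into bile, was at 254 to 918 TPM in every library, and no difference passed (log2 difference -0.74 ± 0.41 in untreated LKO minus WT, adjusted p = 0.831 in limma). Fcgrt, the receptor that protects IgG from breakdown, was at 26.7 to 158 TPM. Its log2 difference in nontumour liver after DEN, LKO minus WT, was -1.53 ± 0.52 (adjusted p = 0.329 in limma). Mzb1 and Cd79a differed there by -0.75 ± 0.67 and -0.61 ± 0.65 (adjusted p of 0.570 and 0.636 in limma), smaller than the difference of Jchain and within the spread between libraries.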

How the data were processed

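RNA was sequenced from 18 bulk liver or tumour libraries in 5 groups. The authors deposited a table of TPM per gene, whose unit corrects for gene length and scales each library to 1000000; the tools named in the submitters' processing notes are HISAT, RSEM and fastp, on build mm10, with no versions given. TPM keeps no read depth, so the depth is unknown and no counting error can be given. Members and lists were chosen with earlier results of these data known. Genes at 1 TPM or more in 3 of 18 libraries were tested on log2(TPM + 1), a scale that understates changes of low genes, with limma 3.58.1 (R 4.3.3; trend, 2-sided, 1 model of 5 group means, 13 residual degrees of freedom, Benjamini-Hochberg over 13872 genes, threshold 0.05). The steps were tested on simulated data. Permutation tests used 100000 resamples (scipy 1.17.1). Genes named with values in every library were Jchain, the constant genes that passed the level rule and the 3 variable segments of each locus with the highest mean; tests are given for Jchain, Igkc, Ighm and Igha, and for further members only where they passed. Genes were also named where groups did not overlap, or after their values were seen (Ighd, Ighe, Igkv17-121, Igkv5-45, Ms4a1, Cxcl13). Alternatives were another scaling, pseudocount 0.1, no filter, compared groups only, a replicate block, each replicate left out, the 3 low-Ftcd libraries left out, and terms for sex or mitochondrial share. Coordinates and sequences are from GENCODE M21; aligned with Biopython 1.88. All sample columns of the table were used. Some genes of the lists are not reported here.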

Additional observations from a re-analysis of the deposited data

Results flagged for a closer look

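In the DEN WT group, 4 of 29 quantities tested had 1 library far from the other 5. Levels were taken as log2(TPM + 1), and ratios and percentages as they are. Chance alone flags about 1 group in 20, but the count of 4 cannot be read against that: Ighv1-53 and Ighv1-82 were among the quantities for their high mean, which DEN WT library 5 sets, so their values restate that choice. In every case it was library 5. The values were 221 TPM for Ighv1-53 (exactly 220.62), 75.3 TPM for Ighv1-82 (75.33), 27.9 TPM for Mzb1 and 27.4 TPM for Cd79a. Of these, 2 are heavy chain variable segments and 2 are genes of plasma cells or B cells. The gap to the next library was 0.78 of the whole range for Mzb1, 0.73 for Cd79a and Ighv1-82, and 0.64 for Ighv1-53. Jchain (0.49), Ighm (0.60) and Igkc (0.19) stayed under Dixon's 95% critical value for 6 samples, and the 29 quantities are not independent of each other.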

How the results depend on the processing

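The number of the 81 genes called stayed at 0 in 98 of 99 alternatives, and was 23 for DEN LKO nontumour minus DEN WT without the 3 low-Ftcd libraries. Of 304 alternatives of the log2 differences of Jchain, Igkc, Ighm and Igha, 282 kept the sign and the side of the threshold, 1 passed (Jchain in that same setting) and 21 turned in sign; the cause was not tested. In DEN LKO nontumour minus DEN WT, Igkc was 0.23 with median-ratio scaling and Ighm 0.15 with the mitochondrial share as covariate. With the replicate number as a block, Igkc was 0.34 and Ighm 0.26 there, and in DEN WT minus untreated WT Jchain was -0.16, Igkc -0.079 and Ighm -0.34; the block called 0 of the 81 in all 6 tests. Same-numbered libraries did not deviate together in every pair of any comparison (correlations -0.63 to 0.35), so the numbers were not taken as pairs. In tumour minus nontumour the correlations were 0.35, 0.30 and -0.034 for numbers 1 to 3. Same-numbered libraries there also matched in sex by Xist and Y-linked transcripts: number 1 was XX, and numbers 2 and 3 were XY. Shared animals are therefore possible in that comparison, whose main test was unpaired. Leaving out 1 library at a time gave -0.76 to 0.55 for Igkc and -1.33 to 0.012 for Ighm in DEN LKO nontumour minus DEN WT, -0.10 to 0.78 for Igkc and -0.089 to 1.01 for Ighm in DEN WT minus untreated WT, -0.15 to 0.80 for Jchain in DEN LKO nontumour minus untreated LKO, and -0.61 to 0.34 for Jchain and -0.56 to 0.52 for Igha in tumour minus nontumour. The libraries whose removal turned a sign were untreated WT 1, DEN WT 1, 4 and 5, DEN LKO nontumour 1, 2 and 3, and tumour 1. Depth is unknown in TPM, so an absent segment may be a segment below detection.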
